A study of Mus musculus with 6 samples.

Results

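The nuclear factor I (NFI) family was followed in keratinocytes of mouse skin through all probe sets annotated to its genes Nfia, Nfib, Nfic and Nfix. All 4 genes were on the array, out of 8251 named genes, and each had a brighter and a dimmer probe set, so 8 of the 12422 probe sets that are not controls belonged to the family. The genes were picked with the difference between EGFP-high and EGFP-negative cells known, so that difference is given for them as a description and without a test. RNA came from 3 EGFP-high and 3 EGFP-negative samples, sorted by flow cytometry from mice that carry enhanced green fluorescent protein under a keratin 15 (K15) promoter. Both gates held α6 integrin positive cells, so the transgene and the integrin gate are shared by the 2 groups. The transgene marks cells by the activity of that promoter, chiefly in the bulge of the hair follicle. The labels give neither the animals' age or strain nor whether samples came from separate animals or sorts, so a test weighs a difference only against the spread of these samples, which may in part be technical.

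NFI proteins are transcription factors that bind DNA as dimers through a conserved amino-terminal domain, and their carboxy-terminal parts activate or repress transcription. The full site is a palindrome, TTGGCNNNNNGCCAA, and a single arm, TTGGC, can also be bound, more weakly. In mouse hair follicle stem cells NFIB and NFIX are known to act together to keep stem cell chromatin accessible, and NFIB restrains the endothelin Edn2, a signal to the melanocyte stem cells that share the niche. NFIC is best known for tooth root formation in mice, and NFIA for the switch of neural progenitors to glia.

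Promoter windows in RefSeq (GRCm38.p6) were searched for these site letters, in the family and, further on, in the genes nearest to Nfib in pattern. The windows run from 250 bases before to 50 bases after a start site, and both strands were searched. Of the NFI genes Nfia and Nfic had 1 window each and Nfix had 4, and 3 of the 6 held TTGGC, all of Nfix, against 46.7% of all 32851 windows. These 6 windows do not include Nfib. The full palindrome was in 0 of the 6 and in 12 of all 32851 windows. Shown here are the Nfix window with the most arms, at chr8:84772826-84773125 on the minus strand, and that of Nfia, at chr4:97581693-97581992 on the plus strand, which holds none. Capitals mark TTGGC or, for the other strand, GCCAA.
Nfix: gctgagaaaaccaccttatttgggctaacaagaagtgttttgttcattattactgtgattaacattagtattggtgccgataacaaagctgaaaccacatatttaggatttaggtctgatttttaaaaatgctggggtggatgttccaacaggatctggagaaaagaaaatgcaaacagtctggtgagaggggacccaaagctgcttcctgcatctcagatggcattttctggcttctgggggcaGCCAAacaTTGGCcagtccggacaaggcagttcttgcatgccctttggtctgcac
Nfia: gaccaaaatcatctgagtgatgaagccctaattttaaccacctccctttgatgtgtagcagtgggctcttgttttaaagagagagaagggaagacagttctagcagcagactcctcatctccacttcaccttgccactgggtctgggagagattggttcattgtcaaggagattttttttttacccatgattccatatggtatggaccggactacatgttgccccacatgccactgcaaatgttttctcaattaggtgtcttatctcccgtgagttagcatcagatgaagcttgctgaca
The 2 arms of the Nfix window begin at bases 246 and 254 of the 300. They have neither the order of the palindrome, as GCCAA comes before TTGGC, nor its spacing. These letters are a description of the windows and not of binding.

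The sort was read from its own genes before the family. Cd34, whose protein marks the bulge in mice, read 1338.8 to 1579 on the EGFP-high arrays and 29.4 to 40.9 on the EGFP-negative arrays. Itga6, which encodes the α6 integrin of both gates, read 405.6 to 585.3 in EGFP-high and 1050 to 1371.4 in EGFP-negative cells. Krt15 itself read 1.7 to 7.4 on EGFP-high and 3.2 to 4.5 on EGFP-negative arrays, below the median of 19 yeast and bacterial control probe sets on every array, so the arrays give no reading of the gene whose promoter drives EGFP. Krt5 and Krt14, the keratins that define basal keratinocytes, read 6.8 to 48.9 over the 6 arrays and were above the control 95th percentile only for Krt5 on EGFP-high array 2, so these markers do not check the labelled cell type either. The 95th percentile of these controls was 25.5 to 42.3 over the 6 arrays. Actin signal at the transcript's 3′ end over that at the 5′ end, a sign of RNA quality, was 1.42, 2.03 and 1.51 on EGFP-high arrays 1, 2 and 3 and 1.26, 1.59 and 1.41 on EGFP-negative arrays 1, 2 and 3, higher in EGFP-high within each number. The same ratio for Gapdh was 0.829, 1.48 and 0.917 on EGFP-high arrays and 0.885, 1.15 and 0.770 on EGFP-negative arrays 1, 2 and 3, lower in EGFP-high for number 1 and higher for numbers 2 and 3. The part of these ratios in the results that follow was not tested.

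Nfib was the NFI gene that differed most between the gates, and it was higher in EGFP-high cells on both of its probe sets. The brighter probe set read 1349.8, 2551.2 and 2088.4 on EGFP-high arrays 1, 2 and 3, against 554.8, 778.8 and 676.5 on EGFP-negative arrays 1, 2 and 3. Every EGFP-high value lay above every EGFP-negative value, and array 1 was the lowest and array 2 the highest of its group in both groups. The actin ratio given above as a sign of RNA quality ranked the arrays in the same way within both groups, and its part in the Nfib values was not tested. The dimmer probe set, whose type may also bind related transcripts, read 1032.5, 1743.7 and 1318.6 in EGFP-high, against 440, 573.2 and 479.6 in EGFP-negative cells. The order of the arrays was the same as on the brighter probe set, and the groups again did not overlap. In bulk RNA of sorted cells, fewer cells of a type and less RNA per cell cannot be told apart.

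**Figure D1:**
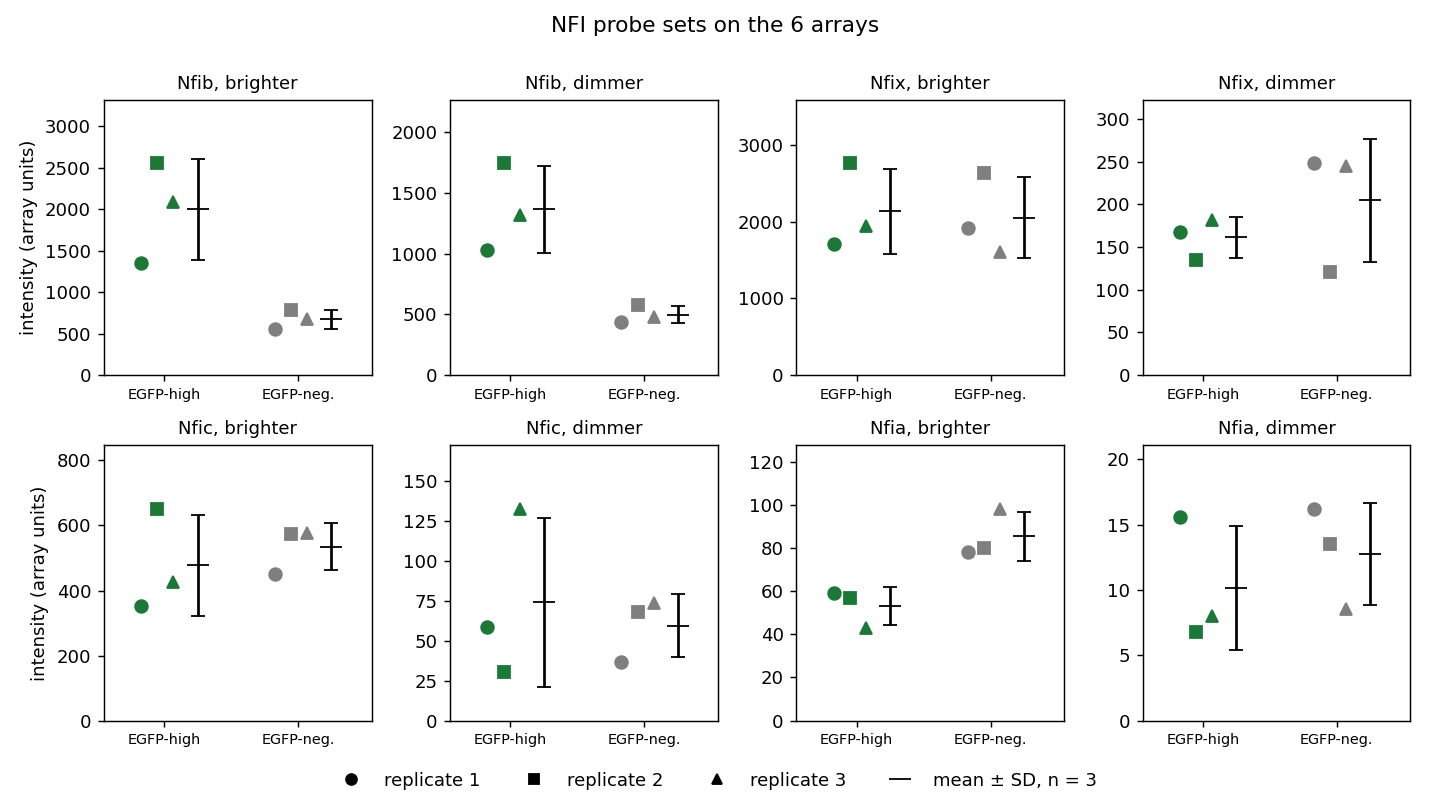
Deposited intensity (array units, linear axis from 0) of each NFI probe set, with 3 EGFP-high arrays (green) left of 3 EGFP-negative arrays (grey), symbols for the replicate number, and a bar for the mean ± SD (n = 3). The groups are apart on both Nfib probe sets, with EGFP-high above, and on the brighter one of Nfia, with EGFP-high below, and overlap on the other 5.

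In group means, the brighter Nfib probe set was 1996 ± 606 in EGFP-high cells against 670.0 ± 112 in EGFP-negative cells (SD, n = 3 each), a ratio of 2.98. On the dimmer one the EGFP-high mean was 1365 ± 358 and the EGFP-negative mean 497.6 ± 68.4, a ratio of 2.74. On the scale of log2(value + 19.3), used for all differences here, EGFP-high minus EGFP-negative came to 1.51 and 1.40. Of the 7453 probe sets bright enough to be tested, 98.6% and 98.4% had a lower difference than these. On the linear scale the EGFP-high values also spread more widely, with a lowest to highest range of 1349.8 to 2551.2 on the brighter probe set against 554.8 to 778.8 in EGFP-negative cells.

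The pair of Nfib probe sets tracked each other closely within arrays. The ratio of the brighter to the dimmer lay between 1.26 and 1.58 over all 6 arrays, so its largest value was 1.26 times its smallest. For Nfix, whose probe sets were also both above the controls on every array, that figure was 3.32. Its ratio was 20.5 on EGFP-high array 2 and 21.8 on EGFP-negative array 2, and 6.56 to 10.7 on the other 4 arrays.

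Nfix, the partner of NFIB in follicle stem cells, had overlapping groups on both probe sets. The brighter one read 1710.5, 2765.2 and 1939.6 on EGFP-high arrays 1, 2 and 3, against 1918.5, 2641.5 and 1605.6 on EGFP-negative arrays 1, 2 and 3. Array 2 was the highest in both groups, and the means were 2138 ± 555 for EGFP-high and 2055 ± 531 for EGFP-negative cells (SD, n = 3 each), a log2 difference of 0.06. The dimmer one read 167.4, 134.6 and 181.9 in EGFP-high, against 248, 121.2 and 244.7 in EGFP-negative cells, a log2 difference of -0.26. Here array 2 was the lowest of its group in both groups, the reverse of the other probe set. The difference was -0.57 without EGFP-negative array 2, -0.15 without EGFP-high array 2, and -0.10 and -0.11 without EGFP-negative arrays 1 and 3.

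Nfic also overlapped between the gates. The brighter probe set read 353.5, 651.3 and 427.1 on EGFP-high arrays 1, 2 and 3, against 451.1, 574.8 and 578.4 on EGFP-negative arrays 1, 2 and 3, a log2 difference of -0.19. The EGFP-high group held both the lowest and the highest of the 6 values, and the difference was -0.43 without EGFP-high array 2 and -0.01 without EGFP-high array 1. The dimmer probe set read 58.8, 30.4 and 132.4 in EGFP-high, against 36.7, 67.6 and 73.3 in EGFP-negative cells, a log2 difference of 0.13. It was above the control 95th percentile on 4 of the 6 arrays, and its sign turned when EGFP-high array 3 was left out (log2 -0.30) or EGFP-negative array 1 (log2 -0.10).

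Nfia was lower in EGFP-high cells on one of its probe sets and was not measured above the controls on the other. The brighter one read 59.1, 56.9 and 43 on EGFP-high arrays 1, 2 and 3, against 78.1, 79.8 and 98.2 on EGFP-negative arrays 1, 2 and 3. The groups did not overlap, and array 3 was both the lowest of the EGFP-high and the highest of the EGFP-negative values. The means were 53.0 ± 8.73 for EGFP-high and 85.4 ± 11.1 for EGFP-negative cells (SD, n = 3 each), a log2 difference of -0.54 that depends on the pseudocount because the values are near the controls. It was -0.65 with a pseudocount of 4.83 and -0.32 with one of 77.2. The dimmer one read 6.8 to 15.6 in EGFP-high and 8.5 to 16.2 in EGFP-negative cells, below the control 95th percentile on all 6 arrays, and was the 1 NFI probe set too dim to enter the tests of the whole table.

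**Figure D2:**
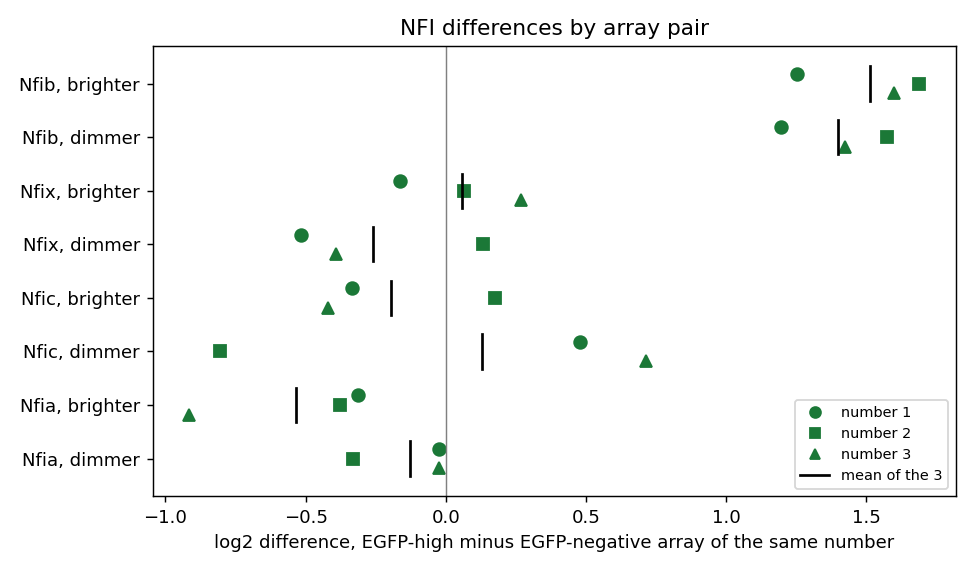
Log2(value + 19.3) of each EGFP-high array minus that of the EGFP-negative array with the same number, for each NFI probe set; symbols give the number and the black line the mean of the 3. Both Nfib probe sets lie between 1.2 and 1.69 in all 3 pairs, both Nfia probe sets lie below 0, and those of Nfic and Nfix fall on both sides of 0. The dimmer Nfia probe set is below the control 95th percentile on all 6 arrays.

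Counted over the family, 3 of the 8 probe sets had groups that did not overlap, 2 with EGFP-high above (both of Nfib) and 1 with EGFP-high below (Nfia). Among all probe sets tested, 22.7% did not overlap, 11.6% with EGFP-high above and 11.1% with EGFP-high below. Since the genes were picked on this contrast, nothing is read from the count. Within pairs of the same number, the brighter Nfib probe set was 2.43, 3.28 and 3.09 times as bright in the EGFP-high as in the EGFP-negative sample of numbers 1, 2 and 3. The log2 difference of Nfib exceeded that of Nfix by 1.42, 1.62 and 1.33 in those pairs, that of Nfic by 1.59, 1.51 and 2.02, and that of Nfia by 1.57, 2.07 and 2.51, on the brighter probe set of each gene.

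Markers of other cell types that the gates could hold were read beside these values. The summed level of 9 melanocyte markers on the array was 630.1 to 781.1 in EGFP-high and 489.1 to 574.7 in EGFP-negative cells. That of 11 fibroblast markers was 1872 to 2181 on EGFP-high and 1547 to 1843 on EGFP-negative arrays, and that of 12 leukocyte markers 739.1 to 981.8 on EGFP-high and 527.2 to 722.8 on EGFP-negative arrays, so all 3 sums were higher in EGFP-high without overlap. Without Fbln1 the fibroblast sum was 1134 to 1393 on EGFP-high and 1265 to 1448 on EGFP-negative arrays, with the lower mean in EGFP-high. The groups also overlapped without Col1a2 for fibroblasts, without Mitf or Sox10 for melanocytes, and without Cd3d, Cd52 or Laptm5 for leukocytes. Of the 5628 named genes tested, 3.06% were higher and 2.27% lower by limma's Benjamini-Hochberg adjusted p. At an unadjusted p under 0.05, 8.71% were higher and 9.06% lower. By the adjusted p, 1 of 4 tested melanocyte markers was higher (Mitf, the melanocyte master regulator, log2 1.13, adjusted p = 0.0147) and 0 were lower. The others tested, Sox10, Pmel and Dct, were not called (log2 0.31, 0.49 and -0.07). Of 6 tested fibroblast markers 1 was higher (Fbln1, a matrix protein, log2 1.04, adjusted p = 0.0487) and 1 lower (the surface protein Thy1, log2 -1.51, adjusted p = 0.0382), and of 4 leukocyte markers 0 passed (2 higher at an unadjusted p under 0.05). The call of Mitf ended without EGFP-high array 3 (adjusted p = 0.0599) or EGFP-negative array 3 (0.0538), and those of Fbln1 and Thy1 ended without any 1 of 5 and 4 of the arrays (up to 0.192 and 0.119). A dimmer probe set of Fbln1 was also called higher (log2 1.96, adjusted p = 0.0133 by limma), and another tested one was not called (log2 0.38, adjusted p = 0.274). The fibroblast markers Col3a1, Mfap4, Dpt and Fap were below the control 95th percentile on all 6 arrays. A dimmer probe set of the collagen Col1a2 read 76.7, 237.2 and 171.7 on EGFP-high arrays 1, 2 and 3, against 15.3, 12.5 and 15.1, all below that percentile, on EGFP-negative arrays 1, 2 and 3, where the brighter one read 708 ± 154 (EGFP-high) and 713 ± 21.6 (EGFP-negative). A dimmer, untested one of Col1a1 read 32.8, 67.9 and 46.7 on EGFP-high and 6.9, 7.5 and 5.4 on EGFP-negative arrays. The melanin enzyme Tyr was above the control 95th percentile on 4 arrays. Of leukocyte genes Ptprc was above it on 1 array, and the T cell receptor subunits Cd3d, Cd3e and Cd3g on 1, 1 and 4. Cd3d, Cd3e, Csf1r and Cd52 were higher on every EGFP-high than on every EGFP-negative array. Coro1a went the other way, at 14.4 to 18.1 in EGFP-high and 19.3 to 69.8 in EGFP-negative cells, and was above that percentile on 1 array. Among all probe sets tested, 11.6% had EGFP-high above without overlap and 11.1% below. The sums overlapped between the groups for dermal papilla (EGFP-high 181.3 to 261, EGFP-negative 207.6 to 262.5), endothelial (EGFP-high 394.1 to 500.5, EGFP-negative 422.6 to 500.6), Schwann cell (EGFP-high 934.5 to 1227, EGFP-negative 900.4 to 1424.2), muscle (EGFP-high 273.2 to 368, EGFP-negative 274.3 to 438.8) and adipocyte markers (EGFP-high 73.8 to 115.1, EGFP-negative 52.9 to 82.5), and of their 2, 2, 5, 4 and 0 tested genes 0 passed (0 higher and 2 lower at an unadjusted p under 0.05). The brightest genes of the 8 lists were Sox10, Col1a2, Cd74, Sox18, Eng, Egr2, Ckm and Adipoq. The part of these cells in the NFI values was not tested.

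The patterns nearest to Nfib over the 6 arrays were those of Ndrg2, Tenm2 and Cd200. Likeness was the root mean square difference between log2 profiles, each centred on its own mean, over 5624 named genes outside the family. It was 0.07 for Ndrg2, an N-myc downstream-regulated gene, 0.11 for Tenm2, a teneurin adhesion protein, and 0.14 for Cd200, a surface ligand that restrains myeloid cells, where the median gene stood at 0.85. Ndrg2 read 169.5, 301.8 and 288.3 on EGFP-high arrays 1, 2 and 3, against 58.4, 87.1 and 69.3 on EGFP-negative arrays 1, 2 and 3. Tenm2 read 468.1, 1079.9 and 843.6 in EGFP-high, against 242.1, 307.9 and 263.2 in EGFP-negative cells. Cd200 read 180.5, 282.1 and 283.5 in EGFP-high, against 53.3, 74.9 and 82.9 in EGFP-negative cells. As for Nfib, array 1 was the lowest of its group in both groups for all 3 genes. The 3 genes were chosen for their likeness to Nfib over these same arrays, so nothing is read from the shared order.

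**Figure D3:**
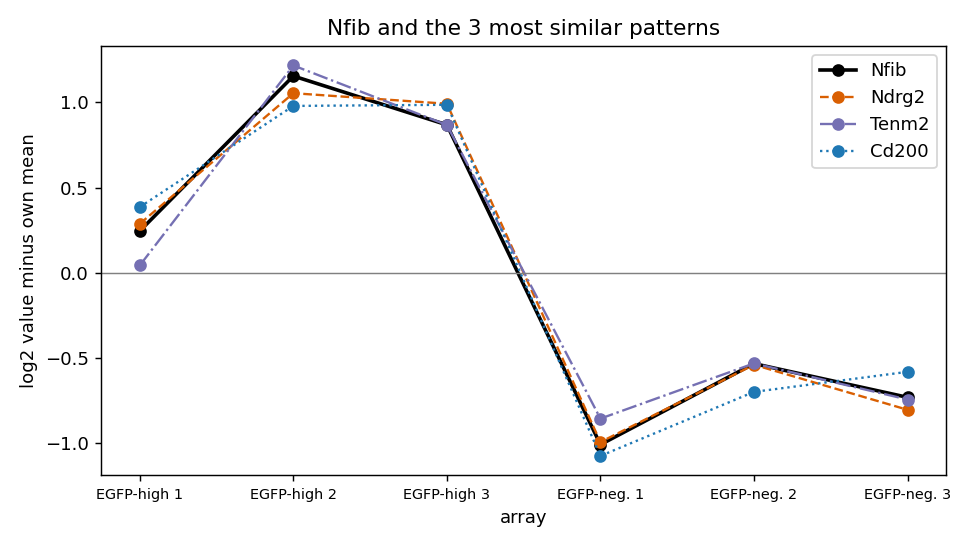
Log2(value + 19.3) of Nfib (brighter probe set) and of the 3 genes with the most similar pattern on the 6 arrays, each minus its own mean over the arrays; the EGFP-high arrays are left of the EGFP-negative arrays and lines only join the points of a gene. All 4 profiles are lowest in array 1 within each group and above 0 on the EGFP-high arrays.

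Promoter windows of these 3 genes are shown because their patterns were picked as the nearest to that of Nfib. Tenm2 and Cd200 had 1 window each and Ndrg2 had 3, and a single TTGGC arm was in those of Tenm2 and Cd200 and in 2 of Ndrg2, of which the most upstream is shown. TTGGC is in 50.4% of the windows of tested named genes, and the palindrome was in none of these 5 windows. The windows are chr14:51913955-51914254 for Ndrg2, chr11:36944192-36944491 for Tenm2 and chr16:45409004-45409303 for Cd200, all on the minus strand of GRCm38.p6, with the arm in capitals. In Tenm2 and Cd200 the arm continues as TTGGCA, which 11% of the windows of tested named genes and 14.1% of all windows hold.
Ndrg2: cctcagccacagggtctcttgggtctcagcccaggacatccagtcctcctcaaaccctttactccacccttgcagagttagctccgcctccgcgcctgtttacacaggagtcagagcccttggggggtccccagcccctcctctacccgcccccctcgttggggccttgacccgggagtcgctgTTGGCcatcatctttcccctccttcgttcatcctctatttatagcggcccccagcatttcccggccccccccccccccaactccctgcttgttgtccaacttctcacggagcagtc
Tenm2: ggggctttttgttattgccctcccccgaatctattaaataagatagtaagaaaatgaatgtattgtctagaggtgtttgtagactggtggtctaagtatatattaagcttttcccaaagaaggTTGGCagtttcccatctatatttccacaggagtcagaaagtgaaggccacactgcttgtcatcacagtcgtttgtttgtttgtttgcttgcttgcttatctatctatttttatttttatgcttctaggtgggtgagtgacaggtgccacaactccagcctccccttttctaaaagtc
Cd200: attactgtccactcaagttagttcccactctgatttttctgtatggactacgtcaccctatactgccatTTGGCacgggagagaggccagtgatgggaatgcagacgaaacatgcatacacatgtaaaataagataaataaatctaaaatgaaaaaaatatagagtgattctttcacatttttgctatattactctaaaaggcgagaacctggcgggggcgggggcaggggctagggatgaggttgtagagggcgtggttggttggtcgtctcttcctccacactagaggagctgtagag

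For the other NFI genes the nearest patterns were read in the same way. Those of Nfia were St3gal6, a sialyltransferase, Pdia3, a protein disulfide isomerase, and Tnk2, a tyrosine kinase, at 0.06, 0.07 and 0.08. Those of Nfic were Erdr1, Cacna1b, a calcium channel subunit, and Anks3, at 0.05, 0.06 and 0.08, and those of Nfix were Dpp6, a potassium channel partner, Tmem68 and Lamtor4, a lysosomal signalling scaffold, at 0.07, 0.08 and 0.08. The median gene stood at 0.38, 0.39 and 0.38 from these NFI genes, whose profiles varied less over the arrays than that of Nfib.

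Among other transcription factors of follicle stem cells and their near progeny, some were higher and some lower in EGFP-high cells. Of 15 tested on the brightest probe set of each gene, 3 were higher and 3 lower (limma, Benjamini-Hochberg adjusted p). Their median log2 difference was 0.39. These factors, like the lists that follow, were chosen with earlier results of these data known, so their count is given as a description. Of tested named genes 5.33% passed (3.06% higher, 2.27% lower). Of all tested probe sets 5.19% passed (3.02% higher, 2.17% lower), with a median log2 difference near 0. Those higher were Id2, which blocks helix-loop-helix factors (log2 3.17, adjusted p = 0.0106), Tcf7l1, a repressor of Wnt targets (1.58, adjusted p = 0.0345), and the vitamin D receptor Vdr (1.35, adjusted p = 0.0486). Those lower were Klf5, a factor of proliferating epithelium (log2 -2.09, adjusted p = 0.00409), Gata3, a factor of epidermal and inner root sheath differentiation (-2.0, adjusted p = 0.00026), and the AP-2 factor Tfap2c (-1.40, adjusted p = 0.0221). Gata3 read 427.8, 476.1 and 460.9 on EGFP-high arrays 1, 2 and 3, against 1571.5, 2151.6 and 1955.8 on EGFP-negative arrays 1, 2 and 3, with no overlap between the groups. With the replicate number as a block, 6 were higher and 3 lower, where 10.6% of tested named genes passed (5.29% higher). Then Nfatc1 (log2 0.65), Runx1 (1.71) and Id3 (1.24) joined those higher. Runx1, at 144 ± 68.2 (EGFP-high) and 33.2 ± 26.0 (EGFP-negative), was bright enough to be tested only through its EGFP-high values. The count higher was 1 without EGFP-high array 2 or EGFP-negative array 2 and 0 without EGFP-high array 3. The call of Vdr ended without any array but EGFP-high 1 (adjusted p up to 0.184), and its other probe set read 124 ± 76.6 in EGFP-high cells against 107 ± 91.2 in EGFP-negative cells. That of Tcf7l1 ended without EGFP-high array 2 or 3 or EGFP-negative array 2 (up to 0.147), that of Tfap2c without EGFP-high array 2 or 3 or EGFP-negative array 1 or 3 (up to 0.103), and that of Id2 without EGFP-high array 3 (0.061). The dimmer probe set of Tcf7l1 was also called higher (log2 1.90, adjusted p = 0.00612 by limma), but was bright enough to be tested only through its EGFP-high values.

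Among genes reported as NFI targets in skin, brain, muscle, tooth, lung or fat, the count called lower varied with the fit. Of 15 tested on the brightest probe set of each gene, 0 were higher and 1 lower, where 3.06% and 2.27% of tested named genes were. The median log2 difference was -0.05. At an unadjusted p under 0.05, 1 was higher and 6 lower, where 8.71% and 9.06% of tested named genes were. Apcdd1, a membrane-bound Wnt inhibitor reported as an NFIA target in mouse glial development, read 262.7, 269.5 and 315.7 on EGFP-high arrays 1, 2 and 3, against 908.3, 960.7 and 935.3 on EGFP-negative arrays 1, 2 and 3 (log2 -1.66, SE 0.15, adjusted p = 0.000371 by limma). All EGFP-high values were below all EGFP-negative values, and the call was kept in all 18 alternative fits. The brightest others were Klf4, a factor of epidermal differentiation, at 2990 ± 925 in EGFP-high cells against 2834 ± 931 in EGFP-negative cells (adjusted p = 0.935), and Cebpa, a CCAAT enhancer binding protein, at 799 ± 105 (EGFP-high) and 1306 ± 283 (EGFP-negative; log2 -0.68, adjusted p = 0.0999). With the replicate number as a block 5 were lower, where 5.33% of tested named genes were. Beside Apcdd1 these were Cebpa, the polycomb methyltransferase Ezh2 (log2 -0.72), the cell cycle inhibitor Cdkn1a (-1.08) and the adhesion molecule Chl1 (-1.45). The count lower was 3 without EGFP-high array 2 or EGFP-negative array 3 and 2 without EGFP-high array 1. Among dimmer probe sets of these genes, that of Col1a2 was called higher (log2 2.32, adjusted p = 0.00489 by limma). It was bright enough to be tested only through its EGFP-high values. The untested one of Col1a1 also read higher (log2 1.37), and tested ones of Cdkn1a and Ccnd1 read lower without a call (log2 -0.79 and -0.46).

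**Figure D4:**
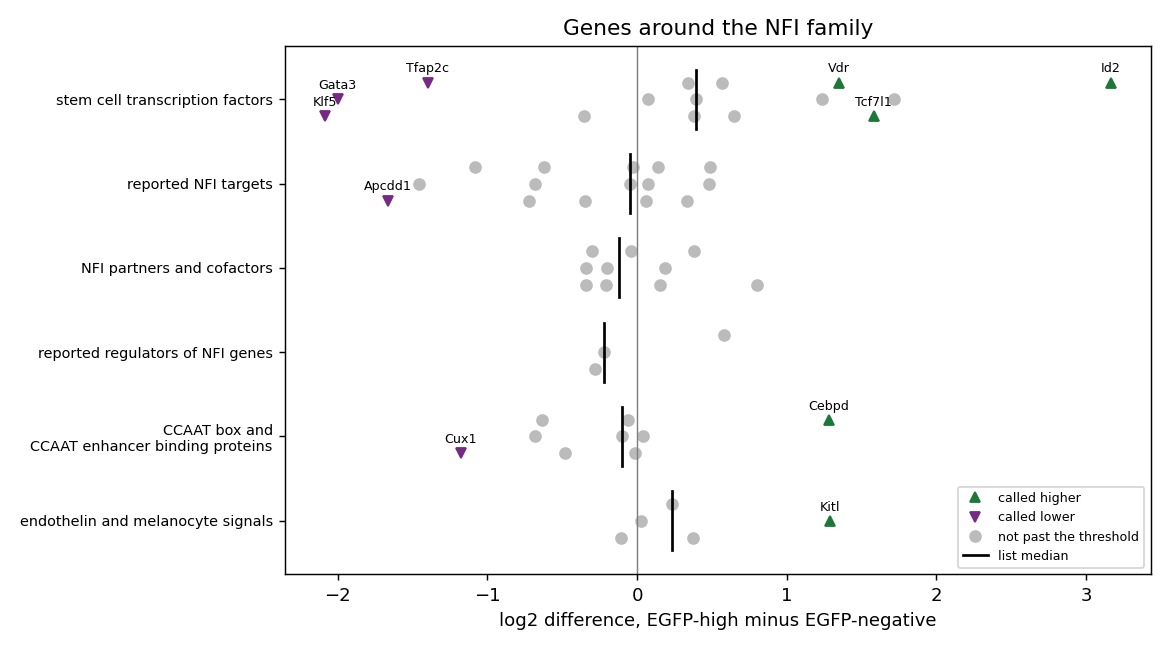
Log2 difference, EGFP-high minus EGFP-negative, of every tested gene of the 6 lists around the NFI family, on the brightest probe set of each gene; triangles are genes past the adjusted p of 0.05 by limma and black lines the list medians. From top to bottom the lists hold 15, 15, 10, 3, 9 and 5 tested genes, some in more than 1 list. They were written with earlier results of these data known. Of these genes 5 are called higher and 5 lower, 6 of the 10 in the list of stem cell transcription factors. Kitl, 1 of the 5 called higher, was bright enough to be tested only through its EGFP-high values. Of tested named genes 3.06% are called higher and 2.27% lower.

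The endothelin Edn2, restrained by NFIB in mouse follicle stem cells, was near the controls and was not tested. It read 38.6, 40.2 and 42.4 on EGFP-high arrays 1, 2 and 3, against 14.4, 36 and 45.6 on EGFP-negative arrays 1, 2 and 3, and was above the control 95th percentile on 3 of the 6 arrays. Of 5 tested endothelin and melanocyte signals 1 was higher and 0 lower, where 3.06% and 2.27% of tested named genes were. The median log2 difference was 0.23. Kitl, the ligand of the melanocyte receptor Kit, read 69.8, 96.8 and 146 in EGFP-high, against 20.1, 37.7 and 33.1 in EGFP-negative cells (log2 1.29, adjusted p = 0.0311 by limma). It was bright enough to be tested only through its EGFP-high values, so the count of 1 rests on a gene that had to differ to enter it, and without the filter it was not called (adjusted p = 0.0703). Its log2 difference ranged between 0.74 and 1.61 over the alternatives. Its call ended without any array but EGFP-high 1 (adjusted p up to 0.138), and the list then had 0 genes higher. Ece1, the endothelin-converting enzyme, read 699 ± 268 in EGFP-high cells against 664 ± 132 in EGFP-negative cells, and Edn1, another endothelin, 128 ± 22.8 (EGFP-high) and 144 ± 45.6 (EGFP-negative).

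Among proteins that read CCAAT elements, the letters through which NFI was once grouped with the CCAAT factors, 1 of 9 tested was higher and 1 lower, and the median log2 difference was -0.10. Of tested named genes 3.06% were higher and 2.27% lower. Cebpd, a factor of growth arrest and stress responses, read 543 ± 167 in EGFP-high cells against 206 ± 28.5 in EGFP-negative cells (log2 1.28, adjusted p = 0.0141 by limma). Cux1, a homeodomain protein that displaces CCAAT factors, read 165 ± 42.0 (EGFP-high) and 392 ± 35.3 (EGFP-negative; log2 -1.18, adjusted p = 0.00828), but its other probe set, too dim to be tested, read 38.5 ± 23.3 (EGFP-high) and 19.9 ± 11.2 (EGFP-negative). The mean of both Cux1 probe sets was not called (log2 -0.34, adjusted p = 0.535; over its alternatives the log2 difference lay between -1.35 and -0.34). The call of Cebpd ended without EGFP-high array 2 (adjusted p = 0.0594) or 3 (0.061). With the block 2 were lower, Cebpa and Cux1, where 5.33% of tested named genes were. Without EGFP-negative array 3, 2 were also lower.

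Of 10 tested partners and cofactors of NFI proteins 0 were called by limma in either direction (2 higher and 0 lower at an unadjusted p under 0.05), and the median log2 difference was -0.12. Of tested named genes 3.06% were called higher and 2.27% lower, and 8.71% and 9.06% were so at the unadjusted p. The brightest were the AP-1 subunits Fos, at 8160 ± 1224 in EGFP-high cells against 8484 ± 2032 in EGFP-negative cells, and Jun, at 975 ± 408 (EGFP-high) and 879 ± 466 (EGFP-negative). With the block, where 5.29% of tested named genes were higher, the glucocorticoid receptor Nr3c1 was called higher. It shares the mouse mammary tumour virus promoter with NFI and read 149 ± 37.9 in EGFP-high cells against 77.0 ± 18.7 in EGFP-negative cells (log2 0.80). Of 3 tested genes reported to act upstream of NFI genes 0 were called, with or without the block (1 higher at an unadjusted p under 0.05), and the median log2 difference was -0.22. Notch1 read 402 ± 102 in EGFP-high cells against 482 ± 168 in EGFP-negative cells, and Myc 239 ± 25.1 (EGFP-high) and 312 ± 129 (EGFP-negative).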

How the data were processed

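Arrays with 1 intensity per probe set were made from 3 EGFP-high and 3 EGFP-negative samples, per the labels. The authors deposited linear intensities for 12488 rows; the software behind them is not given in the sources used here. The mean trimmed by 2% at each end was near 150.1 on every array and array medians differed by at most 1.09 times, so the deposited scale was kept. The 66 control rows were left out. Of the other probe sets 10833 had 1 gene symbol, 396 several and 1193 none; 10817 symbols were matched through Entrez identifiers to RefSeq (GRCm38.p6) and 0 changed.

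Intensities were analysed as log2(value + 19.3), the 25th percentile of values above 0. Probe sets with a mean above the 40th percentile, near an intensity of 44.5, were tested: 7453 probe sets, 5628 named genes. EGFP-high minus EGFP-negative was fitted over all of them with limma 3.58.1 in R 4.3.3 (lmFit, eBayes with trend, two-sided, Benjamini-Hochberg, threshold 0.05), a method tested on simulated data. Members and lists were chosen with earlier results of these data known, some genes stand in more than 1 list, and NFI genes got no test. A list's genes were named if called (at most 4 per direction), with the 2 brightest where fewer than 2 were called; each NFI gene's 3 nearest patterns and each marker list's brightest and called genes were also named. Edn2, Cd3d, Cd3e, Cd3g, Cd52, Csf1r, Coro1a, Laptm5, Dct, Pmel, Col1a1, Nfatc1, Runx1, Id3, Ezh2, Cdkn1a, Ccnd1, Chl1 and Nr3c1 fall outside this rule and were named after their values were seen, as were the markers at the controls and the genes read as a check of the sort.

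Deviations from group means correlated across probe sets at 0.34, 0.37 and 0.30 between same-number arrays, all above the limit of 0.1. Arrays that share a replicate number were therefore treated as pairs, but only in the pairwise differences and in the fit with the block. The main fit had no block, so adjusted p-values and calls given without mention of the block do not use these pairs. It called 387 probe sets, and the fit with the block called 778. No read depth applies, and the number of arrays limits the precision. Alternatives were other pseudocounts, filters and normalizations, the block, no trend, gene means, and arrays left out.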

Additional observations from a re-analysis of the deposited data

How the results depend on the processing

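Over 14 or 15 alternatives each, the sign of the difference stayed for both probe sets of Nfib (log2 1.31 to 1.77 and 1.21 to 1.58) and of Nfia, and for the brighter one of Nfic and the dimmer one of Nfix. The dimmer one of Nfia was below the control 95th percentile on all 6 arrays, so nothing is read from its sign. The sign turned for the brighter one of Nfix in 5 (log2 -0.14 to 0.30) and for the dimmer one of Nfic in 4 (-0.30 to 0.60), all within 1 SD of the reported value. The brighter one of Nfia moved by more than its SD in 3 alternatives. These were -0.32 with the pseudocount 4 times as large, -0.33 for the mean of its probe sets, and -0.35 with arrays left out, where it lay between -0.65 and -0.35. With an alternative chosen after seeing the data, leaving a called marker out of its list's sum, EGFP-high minus EGFP-negative was -89.5 without Fbln1 (reported sum 313), 434 without Thy1, and 90.0 without Mitf (reported 168). The block leaves the NFI differences unchanged by construction.

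Of all probe sets 387 passed, 225 higher and 162 lower. With the replicate number as a block 778 passed (382 higher, 396 lower), including all 387. The block gave 6 stem cell factors higher, 5 NFI targets lower, 1 partner higher and 2 CCAAT proteins lower, and changed no other count by over 1.5 times. Of tested named genes 5.29% were higher and 5.33% lower with the block. With 1 array left out, 191 to 500 passed (108 to 266 higher, 83 to 234 lower), the fewest without EGFP-high array 3, and 226 passed without EGFP-high array 2. With both arrays of a number left out, 57 to 426 passed (43 to 238 higher, 14 to 188 lower), with 128 (84 higher, 44 lower) for number 2. In these fits stem cell factors came to 0 to 4 higher and 1 to 3 lower, NFI targets to 1 to 3 lower, CCAAT proteins to 0 to 1 higher and 0 to 2 lower, and melanocyte signals to 0 to 1 higher. Without the filter 1 stem cell factor and 0 melanocyte signals were higher. With the filter at the 60th percentile 2 targets were lower and 0 melanocyte signals higher. With gene means 2 targets were higher, 2 lower, and 0 CCAAT proteins lower. The causes of these changes were not tested.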
